A study of Homo sapiens with 6 samples.

Results

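The genes described here are the WNT ligands, their receptors and coreceptors, the secreted and cytoplasmic inhibitors, and the TCF/LEF transcription factors. They were chosen by a rule on the gene symbol that uses no measured value, though with earlier results of these data known, and 52 of the 28395 genes in the deposited table matched. The levels come from HCC827, a lung adenocarcinoma cell line of human origin whose EGFR gene has an activating deletion. Cells were treated for 24 h with the vehicle DMSO or with 1 μM erlotinib, an inhibitor of the EGFR kinase, and mRNA was sequenced in 3 libraries of each group. The libraries are called DMSO1, DMSO2, DMSO3, Erlo4, Erlo5 and Erlo6 here, after the table. Between 20760204 and 24641819 reads fell on genes in each library. A level is given as signal, the reads of a gene divided by the size factor of its library, and levels of different WNT genes are ranked only as signal per kb of exon. For neighbouring or overlapping genes and for marker lists, reads or signal are set side by side without division by length. The study used this experiment to ask which genes respond to inhibition of EGFR. Among the genes it reported as suppressed were targets of the coactivators YAP and TAZ, with CCND1 in that group. All libraries come from 1 cell line, and the labels do not say whether the 3 libraries of a group came from separate cultures, so p-values measure only the spread between these libraries.

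WNT proteins are secreted lipid-modified ligands that bind Frizzled receptors together with the coreceptors LRP5 and LRP6. In the canonical branch, binding stops the AXIN and APC complex from marking β-catenin for destruction, and β-catenin then activates genes through TCF and LEF factors. The ligases RNF43 and ZNRF3 remove Frizzled proteins from the cell surface, and R-spondins bound to LGR receptors block these ligases. In the lung, WNT7B is known as an epithelial ligand of the developing airways, and WNT signalling maintains alveolar progenitor cells.

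Epithelial genes were expressed at high levels. EPCAM had a signal of 10104, 9813 and 9638 in the DMSO libraries and 9802, 9268 and 9386 in the erlotinib libraries. All 7 epithelial markers had enough signal to test. Of these, 3 fell and 2 rose, beside 35.4% lower and 35.3% higher among all tested genes. The summed signal of the epithelial markers was 173696, 152655 and 162137 in DMSO1 to DMSO3 and 136656, 137628 and 136746 in Erlo4 to Erlo6, with KRT19 the highest in signal. The 6 leukocyte markers summed to 143, 124 and 172 and to 114, 124 and 114, most of it from CSF1R, and PTPRC, which defines leukocytes, had no more than 6 reads in any library. The 4 endothelial markers summed to 34.03, 15.8 and 20.3 and to 58.1, 46.5 and 45.9. In each DMSO library PECAM1 was the highest of them, at 19.3, 14.9 and 12.8. It was at 12.9, 8.91 and 9.36 with erlotinib and was neither (log2 fold change -0.55). With erlotinib VWF was the highest, and it rose but reached the limit for testing only through the erlotinib libraries. CDH5 had 10, 0 and 0 reads in DMSO1 to DMSO3 and 11, 8 and 13 in Erlo4 to Erlo6, and KDR had no more than 4 reads in any library. Of 7 fibroblast markers, 4 had no more than 3 reads in every library, and COL1A1, the highest in signal, had a signal of 68.1, 69.7 and 95.3 in the DMSO libraries and 245, 213 and 190.0 in the erlotinib libraries. The summed signal of the fibroblast markers was 73.7, 75.2 and 109 in DMSO1 to DMSO3 and 260.2, 223 and 217 in Erlo4 to Erlo6. It was higher in every erlotinib library, as were the ligands WNT5A and WNT16 described below, and its part in their change was not tested. LUM had 2, 4 and 6 reads in DMSO1 to DMSO3 and 10, 10 and 20 in Erlo4 to Erlo6, without overlap, while PDGFRB had no more than 5 reads in any library. The 4 markers with no more than 3 reads were COL1A2, COL3A1, DCN and PDGFRA. In bulk RNA, fewer cells of one type and less RNA per cell cannot be told apart. DMSO2 stood further from its replicates than the other libraries, with a chi-square per degree of freedom of 22.9 against DMSO1 and 14.4 against DMSO3, compared with 4.05 to 7.61 for the other pairs within a group. Without DMSO2, the counts of WNT genes that rose (13) and fell (7) were those obtained with all 6 libraries.

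Of the 52 genes, 28 had a mean signal of at least 10 and were tested with limma on log2(signal + 1), and 24 were below this limit. With erlotinib, 13 of the 28 rose, 7 fell and 8 were neither, at an adjusted p-value under 0.05 (Benjamini-Hochberg over all 14215 tested genes). Of all tested genes, 70.7% changed, 35.3% being higher and 35.4% lower. The share of WNT genes that changed, 20 of 28, was thus close to that of all genes. When libraries were scaled to their total counts instead, which moved the median log2 fold change of all genes from 0.02 to 0.19, 17 WNT genes were higher and 6 lower, while 6156 of all tested genes were higher and 3955 lower. By at least 1 log2 unit, 6 WNT genes rose and 4 fell, against 17.0% and 10.8% of all tested genes. The libraries of the groups did not overlap for 22 of the 28 genes, as for 73.6% of all tested genes. Among the genes counted as rising or falling, also by at least 1 log2 unit, are WNT5A and FZD9. Both reached the limit for testing only through the group where they were high. So did TCF7L1, counted among the genes without overlap, and some difference was thus required of these genes. The median log2 fold change was 0.26 for the 28 genes and 0.02 for all tested genes. Under total count scaling these medians were 0.43 and 0.19, and without the limit on signal they were 0.50 (45 WNT genes) and 0.13.

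**Figure D1:**
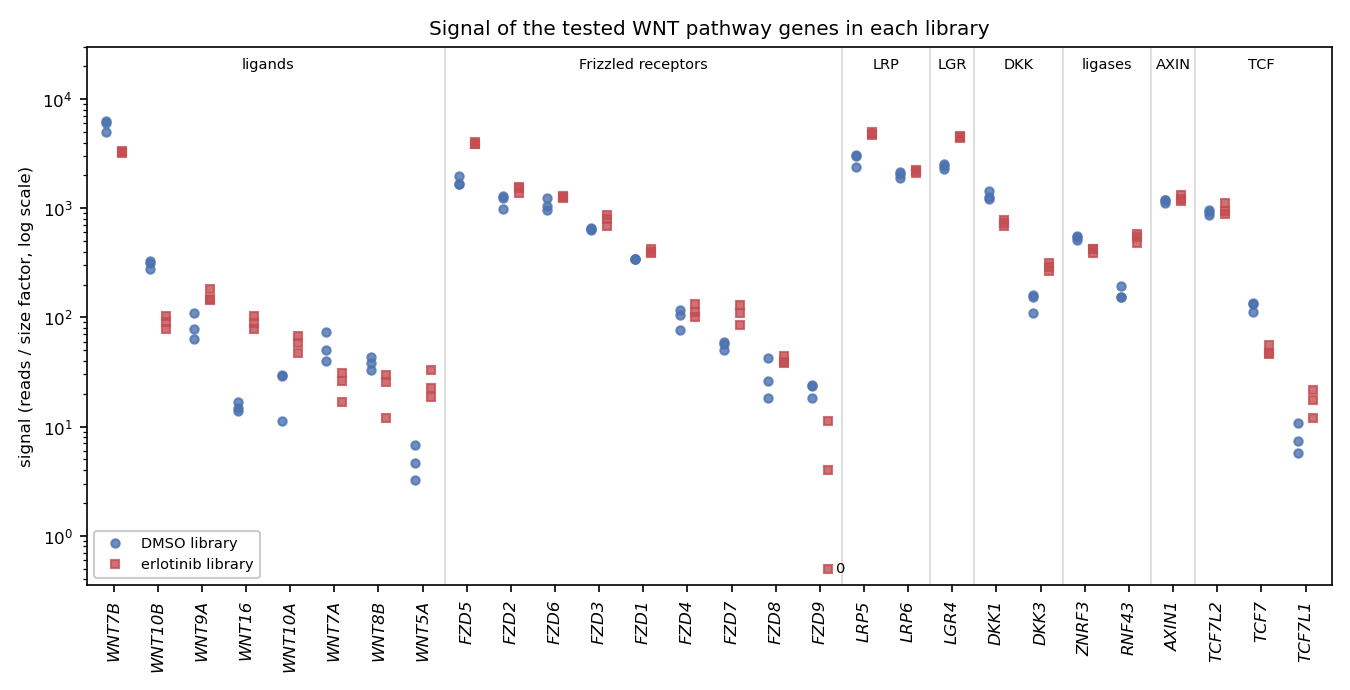
Signal (reads divided by the size factor, log axis) of the 28 tested WNT genes in each library, grouped by role, with 3 DMSO libraries (circles) and 3 erlotinib libraries (squares) per gene. FZD9 had a signal of 0 in Erlo4, drawn at the bottom of the axis. The circles and squares of WNT10B, WNT16, FZD5, LGR4 and RNF43 are clearly apart, while those of AXIN1 and TCF7L2 overlap.

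**Figure D2:**
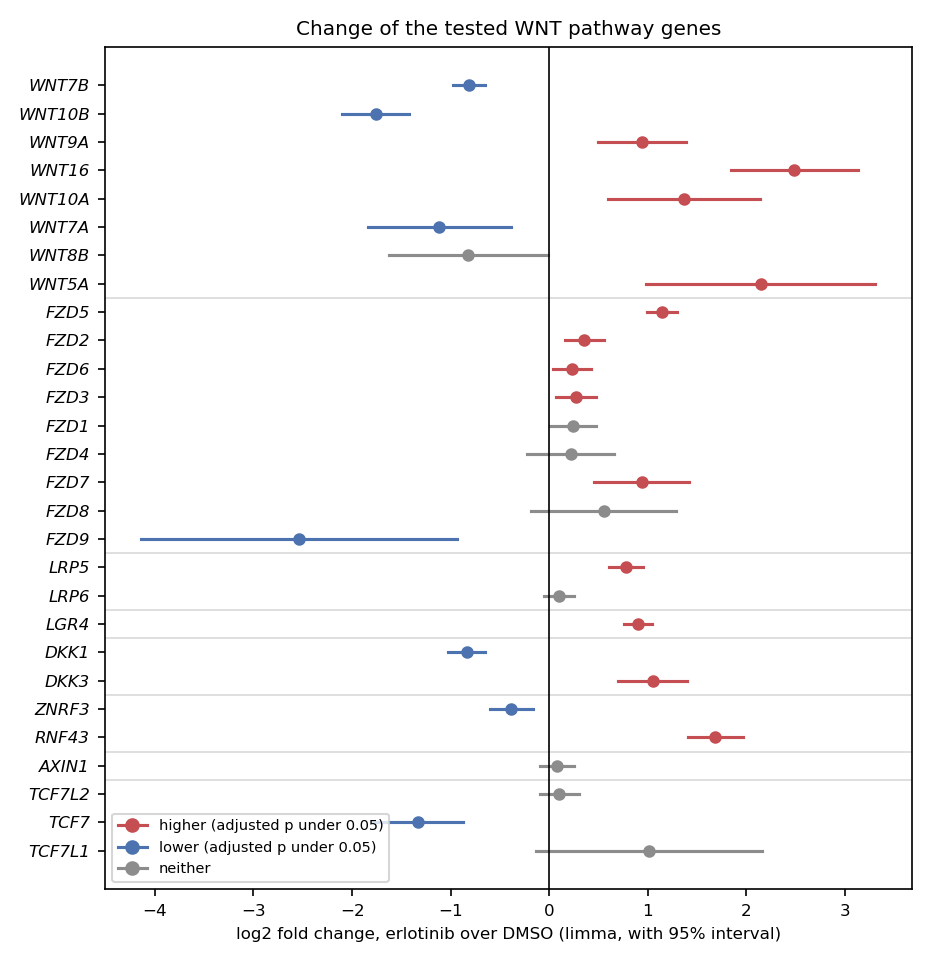
Log2 fold change of the 28 tested WNT genes with erlotinib over DMSO, with its 95% interval (limma on log2(signal + 1)), in the order of the roles. Red marks the 13 genes that rose, blue the 7 that fell and grey the 8 that were neither at an adjusted p-value under 0.05.

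Among the ligands, WNT7B, WNT10B and WNT7A fell with erlotinib, and WNT16, WNT5A, WNT10A and WNT9A rose. These are 7 of 8 tested ligands, beside 70.7% changed among all tested genes. WNT7B (chromosome 22, 45920366 to 45977162 of GRCh38) was the most abundant per kb of exon. Its signal was 6252, 5001 and 6090.0 in the DMSO libraries and 3179, 3374 and 3273 in the erlotinib libraries, so every erlotinib library was below every DMSO library. This was a log2 change of -0.81 ± 0.08 (SE, limma, adjusted p = 8.3e-09). WNT10B (chromosome 12, 48965340 to 48971735), a ligand of the canonical branch, had a signal of 330.1, 315 and 278 in the DMSO libraries and 78.4, 103 and 89.9 in the erlotinib libraries. The groups were far apart, with a log2 change of -1.76 ± 0.16 (SE, limma, adjusted p = 5.8e-09). WNT7A, the closest relative of WNT7B, had a signal of 49.9, 39.9 and 72.8 in the DMSO libraries and 16.6, 30.7 and 26.2 in the erlotinib libraries. Its groups did not overlap, and it fell with a log2 change of -1.11 ± 0.35 (SE, limma, adjusted p = 0.0071). Without DMSO3, the library with its highest level, the adjusted p-value of WNT7A was 0.054 (limma, log2 change -0.88).

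Per kb of exon, the ligands that rose were below WNT7B and WNT10B in every DMSO library, while WNT9A was above WNT7A in each. WNT16 (chromosome 7, 121325367 to 121341104) had a signal of 14.7, 16.7 and 13.9 in the DMSO libraries and 103, 88.1 and 77.7 in the erlotinib libraries. This was the largest rise of the family, with a log2 change of 2.49 ± 0.31 (SE, limma, adjusted p = 3.6e-07), and the groups were well separated. WNT5A, which is best known for signalling without β-catenin, had only 6, 5 and 3 reads in DMSO1 to DMSO3 and 36, 23 and 20 in Erlo4 to Erlo6. Its signal was 4.89 ± 1.81 in the DMSO group and 24.9 ± 7.48 in the erlotinib group (SD, n = 3), a log2 change of 2.14 ± 0.56 (SE, limma, adjusted p = 0.00185). It reached the limit for testing only through the erlotinib libraries, so that some difference was required of it, and it was not tested where 10 reads were asked of every library. With a pseudocount of 10 in place of 1, the log2 fold change was 1.22 for WNT5A and 1.98 for WNT16. WNT10A had a signal of 11.3, 29.7 and 28.9 in the DMSO libraries and 58.1, 47.5 and 67.4 in the erlotinib libraries, with DMSO1 lowest, and rose with a log2 change of 1.37 ± 0.37 (SE, limma, adjusted p = 0.00248). WNT9A rose from 63.5, 78.01 and 110.2 to 145, 148 and 183, a log2 change of 0.94 ± 0.21 (SE, limma, adjusted p = 5.5e-04). WNT8B was the only tested ligand that did not pass the threshold, at 43.1, 38.1 and 33.2 in the DMSO libraries and 25.8, 11.9 and 29.95 in the erlotinib libraries (log2 fold change -0.82, 95% interval -1.63 to -0.01, adjusted p = 0.0648, limma). Without Erlo6 its log2 fold change was -1.07 with an adjusted p-value of 0.038, and without Erlo5 it was -0.43 with an adjusted p-value of 0.324 (limma).

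In the summed signal of the 19 ligands, WNT3 and WNT9B count as 0, though their expression could not be judged. Per kb of exon, this sum was 1416, 1169.8 and 1381 in the DMSO libraries and 771, 809.8 and 799 in the erlotinib libraries. WNT7B made up 86.9%, 84.2% and 86.8% of this sum in DMSO and 81.2%, 82.01% and 80.7% with erlotinib. In DMSO the next gene was WNT10B, at 8.96%, 10.3% and 7.75%. With erlotinib WNT10B made up 3.91%, 4.89% and 4.33%, WNT9A 4.69%, 4.55% and 5.74% and WNT16 4.11%, 3.33% and 2.98%, and neighbours in this order overlapped. Most of the difference between the sums of the groups lay in WNT7B.

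**Figure D3:**
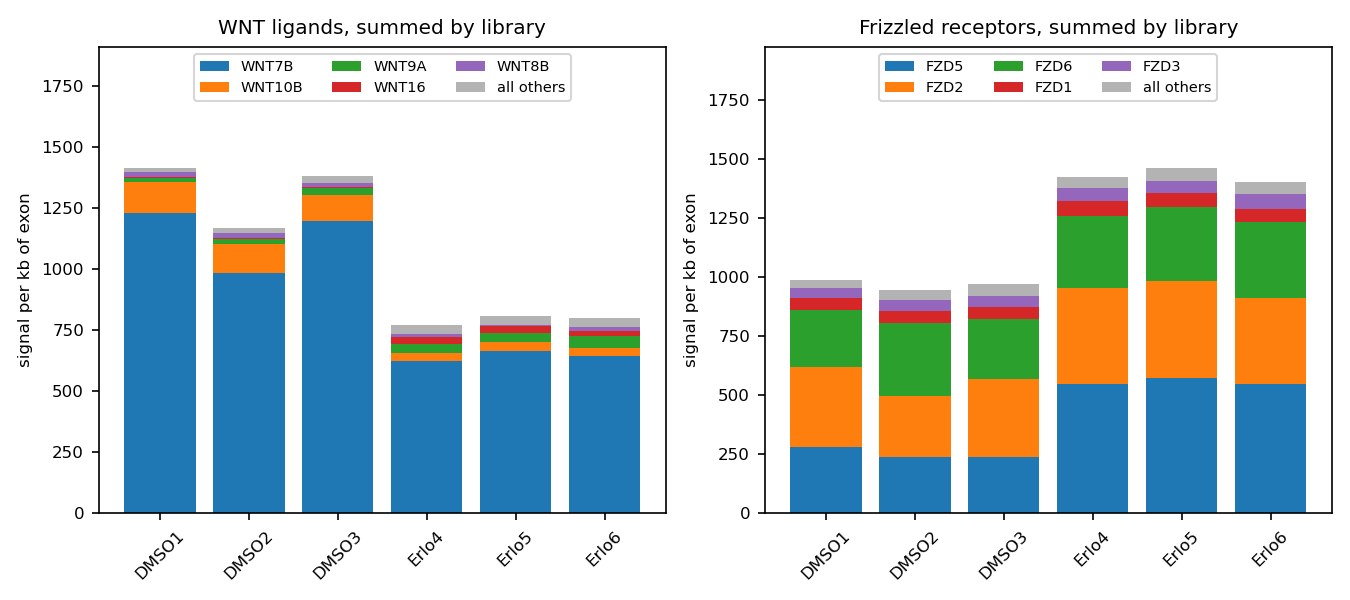
Signal per kb of exon in each of the 6 libraries, summed over the 19 WNT ligands (left) and the 10 Frizzled receptors (right), with the 5 genes of highest mean level in colour and all others in grey. WNT3 and WNT9B are drawn as 0, though their expression could not be judged. The ligand sums lie between 1169.8 and 1416 in DMSO and between 771 and 809.8 with erlotinib, and the receptor sums between 945 and 989 and between 1403 and 1463.

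Of 9 Frizzled receptors tested, 5 rose with erlotinib, 1 fell and 3 were neither, and the 6 that changed are a share near the 70.7% of all tested genes. FZD5 (chromosome 2, 207762598 to 207769906), a receptor of WNT ligands in epithelia, had a signal of 1960.3, 1673 and 1684 in the DMSO libraries and 3848, 4042 and 3842 in the erlotinib libraries. The mean with erlotinib was 2.21 times that in DMSO, and the groups were widely separated, with a log2 change of 1.14 ± 0.07 (SE, limma, adjusted p = 2.0e-11). FZD7 rose from 49.9, 57.6 and 58.9 to 84.9, 131 and 109.5, a log2 change of 0.94 ± 0.23 (SE, limma, adjusted p = 0.0012). The changes of FZD2 (0.36, adjusted p = 0.00256), FZD3 (0.27, adjusted p = 0.0181) and FZD6 (0.23, adjusted p = 0.0285) were small rises on the log2 scale (limma), and that of FZD2 was 0.23 without DMSO2. Under total count scaling they were 0.54, 0.45 and 0.41. The calls of FZD3 and FZD6 lay near the threshold and were lost when some single libraries were left out. FZD3 had a log2 change of 0.26 without Erlo4 (adjusted p = 0.064) and 0.20 without Erlo6 (adjusted p = 0.128). FZD6 had log2 changes from 0.16 to 0.25, and its adjusted p-value lay between 0.055 and 0.154 without DMSO1, DMSO3, Erlo4, Erlo5 or Erlo6 in turn (limma). FZD6 was the only one of these receptors with overlapping groups, since DMSO2 (1252) was above Erlo4 (1241).

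FZD9 was the 1 receptor that fell, from 16, 26 and 22 reads in DMSO1 to DMSO3 to 0, 4 and 12 in Erlo4 to Erlo6. FZD9 reached the limit for testing only through the DMSO libraries, so that some difference was required of it, and it too was not tested where 10 reads were asked of every library. The fall was a log2 change of -2.54 ± 0.77 (SE, limma, adjusted p = 0.006), and it was -1.15 when 10 was added to the signal in place of 1, and -3.72 when 0.1 was added. Without Erlo4, the library with 0 reads, it was -1.55, and without Erlo6 it was -3.35. FZD1 had a signal of 341, 341 and 339 in the DMSO libraries and 423, 397 and 387 in the erlotinib libraries and a log2 fold change of 0.24 (95% interval 0.0030 to 0.47, adjusted p = 0.0657, limma). FZD4 (0.22, 95% interval -0.22 to 0.65) and FZD8 (0.55, 95% interval -0.19 to 1.29) did not pass the threshold either. The value of FZD4 was 0.035 without DMSO1, 0.11 without Erlo4 and 0.34 without DMSO3. Without DMSO3, the library with its highest DMSO level, FZD8 had a log2 fold change of 0.87 and an adjusted p-value of 0.043 (limma), and without DMSO1, the library with its lowest level, these were 0.27 and 0.503. FZD4 overlaps PRSS23 on the genome, whose mean signal was 14087 compared with 107 for FZD4. FZD10 had 2 reads in Erlo5 and 0 in the other libraries.

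Per kb of exon, the order of the receptors changed. The lengths used join all exons of a gene and need not be those of the transcripts expressed. In DMSO the signal per kb was 342, 259.5 and 328 for FZD2, 239, 308 and 256 for FZD6 and 278, 238 and 239 for FZD5, and the ranges of these receptors overlapped. With erlotinib it was 547, 574 and 546 for FZD5, 408, 410.0 and 366 for FZD2 and 305, 314 and 321 for FZD6, with no overlap between neighbours. FZD1 and FZD3 followed at 49.2 to 49.5 and 45.8 to 47.4 in DMSO and at 56.1 to 61.3 and 50.3 to 62.5 with erlotinib, and these overlapped with erlotinib only. The other receptors were at most 28.5 per kb in any library. The ratio of FZD5 to FZD2, per kb, was 0.814, 0.916 and 0.729 in the DMSO libraries and 1.34, 1.40 and 1.49 in the erlotinib libraries.

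LRP5 rose and LRP6 did not pass the threshold. LRP5 (chromosome 11, 68298412 to 68449275) had a signal of 3050.4, 2408 and 3018 in the DMSO libraries and 4691, 4753 and 5001 in the erlotinib libraries, with DMSO2 lowest and no overlap between the groups. This was a log2 change of 0.78 ± 0.08 (SE, limma, adjusted p = 3.3e-08). LRP6 had a signal of 1887, 2127 and 2072 in the DMSO libraries and 2179, 2092 and 2234 in the erlotinib libraries and a log2 fold change of 0.10 (95% interval -0.06 to 0.25, adjusted p = 0.242, limma), and the difference between the changes of LRP5 and LRP6 was not tested. The value of LRP6 was 0.046 without DMSO1 and 0.13 without DMSO2. Per kb, the ratio of LRP5 to LRP6 was 2.71, 1.90 and 2.44 in DMSO and 3.61, 3.81 and 3.75 with erlotinib, without overlap. Of the R-spondin receptors, only LGR4 was expressed at a level that could be tested. LGR4 (chromosome 11, 27365961 to 27472790) had a signal of 2448, 2559 and 2277 in the DMSO libraries and 4626, 4535 and 4409.8 in the erlotinib libraries, a log2 change of 0.90 ± 0.07 (SE, limma, adjusted p = 2.2e-10). LGR5, a marker of intestinal stem cells and a target of the pathway, had 2 reads in DMSO2, 2 in Erlo6 and 0 in the other libraries. LGR6 had no more than 7 reads in any library.

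**Figure D4:**
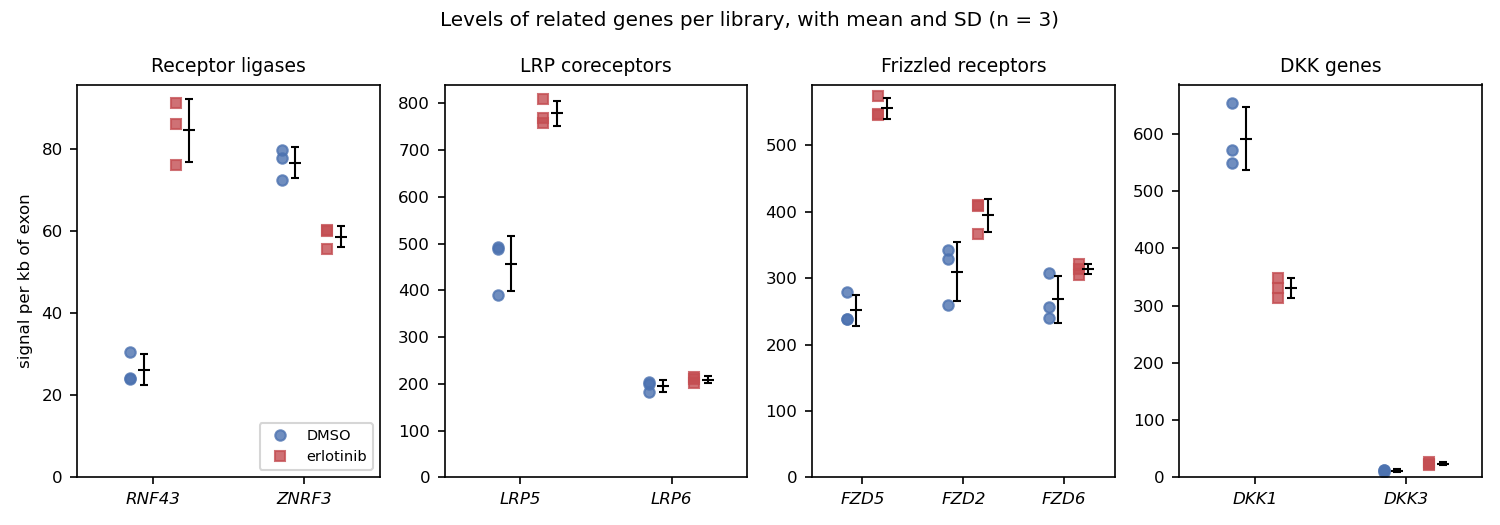
Signal per kb of exon of related genes in each library, with 3 DMSO libraries (circles), 3 erlotinib libraries (squares), and the mean and SD of each group beside them. RNF43 lies below ZNRF3 in DMSO and above it with erlotinib, and FZD5 has the highest level of the receptors shown with erlotinib.

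The ligases that clear Frizzled proteins changed in opposite directions. RNF43 (chromosome 17, 58352500 to 58417534) rose from 153, 152 and 194 in the DMSO libraries to 483, 545 and 578 in the erlotinib libraries, a log2 change of 1.69 ± 0.14 (SE, limma, adjusted p = 5.7e-10). ZNRF3 (chromosome 22, 28883572 to 29057488) fell from 507, 558 and 544 to 389, 422 and 420.3, a log2 change of -0.38 ± 0.11 (SE, limma, adjusted p = 0.0028). Under total count scaling, ZNRF3 kept its direction (log2 fold change -0.21) but had an adjusted p-value of 0.093 (limma). Per kb, RNF43 was at 24.2, 24.1 and 30.6 and ZNRF3 at 72.6, 79.9 and 77.8 in DMSO, so ZNRF3 was higher in each library. With erlotinib RNF43 was at 76.3, 86.2 and 91.4 and ZNRF3 at 55.7, 60.3 and 60.1, so RNF43 was higher in each. The ratio of RNF43 to ZNRF3 was 0.334, 0.301 and 0.393 in the DMSO libraries and 1.37, 1.43 and 1.52 in the erlotinib libraries. RNF43 shares 1228 bases of its span with TSPOAP1-AS1, whose mean signal rose from 5.62 to 18.9 with erlotinib (log2 change 1.61, the limit for testing being reached only through the erlotinib libraries), and ZNRF3 overlaps ZNRF3-AS1, with a mean of 16.2 over all libraries. Strand was not given for the counting, so reads from exons that 2 genes share cannot be told apart. The overlaps given here are those of whole spans, not of exons.

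The bases before the transcription starts of 35 of the 52 genes were found in the RefSeq promoter table (GRCh38.p14), which gives 250 bases before and 50 after each start. The core of the TCF/LEF motif, ATCAAAG on either strand, was in 0 of these 35 genes and in 2.62% of the 35116 promoters of the table. The AP-1 motif TGANTCA, which reads alike on both strands, was found for 1 gene, RNF43, and in 7.71% of all promoters. The FOXO motif GTAAACA, on either strand, was found for TCF7 and WNT5B, and in 3.42% of all promoters. The AP-1 and FOXO motifs were added after the expression values had been seen. Below are the 250 bases before a start of RNF43, of WNT16 and of FZD5, the ligase, ligand and receptor that rose most among those in the table, and 30 bases around the match in TCF7, each 5′ to 3′ along the gene. Capitals mark the AP-1 match in RNF43, whose first base is at -47 from the start, and the FOXO match in TCF7, at -23. The window of RNF43 (chr17:58402722-58402971, minus strand) lies before an inner start, 14.8 kb inside the gene, and holds no exon of it in GENCODE. The windows of WNT16 (chr7:121328750-121328999, plus strand) and FZD5 (chr2:207769907-207770156, minus strand) hold none of these motifs. The start used for WNT16 is 3.63 kb inside the gene, while that of FZD5 is the first base of the gene. The 30 bases of TCF7 (chr5:134115575-134115604, plus strand) precede an inner start 7.39 kb inside the gene and all belong to exons of TCF7 in GENCODE, so this match does not lie upstream of the gene. GC content was 45.2% in the RNF43 window, 64.8% in that of WNT16 and 76.8% in that of FZD5. A match is a description of the letters and not of binding.
RNF43: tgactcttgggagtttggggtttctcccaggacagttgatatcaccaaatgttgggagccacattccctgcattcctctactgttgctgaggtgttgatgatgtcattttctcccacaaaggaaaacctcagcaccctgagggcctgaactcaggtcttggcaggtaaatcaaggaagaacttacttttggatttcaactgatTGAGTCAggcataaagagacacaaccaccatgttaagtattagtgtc
WNT16: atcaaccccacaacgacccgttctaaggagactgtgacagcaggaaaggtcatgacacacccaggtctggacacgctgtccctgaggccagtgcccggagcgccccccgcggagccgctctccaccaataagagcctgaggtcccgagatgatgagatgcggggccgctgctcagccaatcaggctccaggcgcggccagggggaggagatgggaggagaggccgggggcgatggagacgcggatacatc
FZD5: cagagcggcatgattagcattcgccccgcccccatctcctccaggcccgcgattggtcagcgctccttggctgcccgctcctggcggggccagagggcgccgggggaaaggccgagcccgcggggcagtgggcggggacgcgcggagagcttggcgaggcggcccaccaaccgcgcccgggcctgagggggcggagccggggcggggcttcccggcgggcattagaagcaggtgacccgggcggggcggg
TCF7: ctgacctttataggaGTAAACAgacccccg

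Of 8 secreted inhibitors, DKK1 and DKK3 were tested, and they changed in opposite directions. DKK1 (chromosome 10, 52314281 to 52317657), which blocks LRP5 and LRP6, had a signal of 1218, 1452 and 1269 in the DMSO libraries and 774, 694 and 734 in the erlotinib libraries. All DMSO libraries were above all erlotinib libraries, with a log2 change of -0.84 ± 0.09 (SE, limma, adjusted p = 5.3e-08). DKK3, the most divergent member of the family, had a signal of 160.0, 109 and 155 in the DMSO libraries and 287, 265 and 316 in the erlotinib libraries. It rose with a log2 change of 1.05 ± 0.17 (SE, limma, adjusted p = 1.0e-05). Per kb, DKK1 remained the higher gene in every library, at 349, 312 and 330.4 with erlotinib against 24.00, 22.2 and 26.5 for DKK3. SFRP1, SFRP2, SFRP4 and SFRP5, secreted proteins that bind WNT ligands, had no more than 6 reads in any library, and SFRP2, DKK2 and DKK4 had 0 in all.

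Of the transcription factors, TCF7L2 was the most abundant per kb of exon. Its signal was 918, 956 and 863 in the DMSO libraries and 952, 885 and 1114 in the erlotinib libraries. It had a log2 fold change of 0.10 (95% interval -0.09 to 0.30, adjusted p = 0.337, limma), and its groups overlapped. This value was 0.011 without Erlo6, 0.064 without DMSO3 and 0.18 without Erlo5. TCF7 fell from 133, 112 and 135 to 56.3, 47.5 and 45.9, a log2 change of -1.33 ± 0.22 (SE, limma, adjusted p = 1.6e-05). TCF7 shares 6323 bases of its span with VDAC1, a mitochondrial channel gene with a mean signal of 5817 that fell with a log2 fold change of -1.50 (adjusted p = 5.8e-14, limma). The signal of TCF7 was 1.47% of that of VDAC1 in DMSO and 1.64% with erlotinib, and the part of reads from VDAC1 in the fall of TCF7 was not tested. TCF7L1 reached the limit for testing only through the erlotinib libraries and had a signal of 5.67, 7.43 and 10.7 in the DMSO libraries and 17.5, 11.9 and 21.5 in the erlotinib libraries, without overlap between the groups (log2 fold change 1.01, 95% interval -0.13 to 2.15, adjusted p = 0.106, limma). LEF1 had 4 reads in Erlo6 and 0 in the other libraries. AXIN1, the scaffold of the β-catenin destruction complex, had a signal of 1189, 1113 and 1199.8 in the DMSO libraries and 1167, 1209 and 1333 in the erlotinib libraries and a log2 fold change of 0.08 (95% interval -0.09 to 0.25, adjusted p = 0.386, limma). The value of AXIN1 was 0.026 without Erlo6, 0.048 without DMSO2 and 0.12 without Erlo4. Under total count scaling, LRP6 (0.28, adjusted p = 0.0035), TCF7L2 (0.28, adjusted p = 0.014), AXIN1 (0.26, adjusted p = 0.009) and FZD1 (0.42, adjusted p = 0.0029) passed the threshold (limma), with the median of all genes at 0.19.

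Several genes that are widely used as readouts of β-catenin and TCF activity were almost without reads in either group. AXIN2, a feedback inhibitor induced by the pathway in many tissues, had 0, 0 and 2 reads in DMSO1 to DMSO3 and 2, 0 and 0 in Erlo4 to Erlo6. NKD1, another feedback inhibitor, had 0, 8 and 3 reads in DMSO and 0, 0 and 6 with erlotinib. For AXIN2, LGR5 and LEF1 no change could be detected at this depth, since 3 reads correspond to a signal of 2.77 to 3.4. NOTUM, a secreted WNT deacylase that is also a target, was named after its values were seen. It had 0, 2 and 0 reads in DMSO and 7, 14 and 25 reads with erlotinib, too few to test.

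Of the 24 genes below the limit for testing, 7 had 0 reads in every library, 15 had no more than 3 reads in any library (these 7 included) and 9 had more. WNT2B had 5, 2 and 6 reads in DMSO and 29, 10 and 10 with erlotinib, and a mean signal just under 10. WNT2B overlaps ST7L, whose mean signal was 191. WNT4, WNT5B and WNT11 had at most 12 reads in any library, and WNT2 had 2 reads in Erlo5 and 0 elsewhere. The genes at 0 were WNT3, WNT8A, WNT9B, NKD2, DKK2, DKK4 and SFRP2. The transcripts of WNT3, WNT9B and NKD2 have a copy on an alternate contig of GRCh38 that covers at least 90% of the transcript at 97% identity or more, and these were the only such WNT genes. The counting kept uniquely mapped reads, and 3 neighbours of WNT3 with such copies, NSF, KANSL1 and MAPT, were also listed at 0, although NSF is needed for membrane fusion in every cell. GOSR2, a neighbour without a copy, had a mean signal of 1179.9. WNT3, WNT9B and NKD2 are listed at 0 here, and reads lost in mapping cannot be told apart from a lack of expression. No neighbour of NKD2 was examined. Whether the reference used for mapping held alternate contigs is not given in the sources used here.

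Ligand genes that lie side by side on a chromosome differed in level. WNT10B and WNT1 are 6.59 kb apart on chromosome 12, and WNT1 had no more than 4 reads in any library against up to 339 for WNT10B. WNT9A and WNT3A are 59.1 kb apart on chromosome 1, and WNT3A had no more than 2 reads against up to 196 for WNT9A. The spans of WNT10A and WNT6 share 118 bases on chromosome 2, and WNT6 had no more than 2 reads against up to 72 for WNT10A. In each of these pairs 1 gene thus held nearly all reads in both groups.

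Beyond these 52 genes, a list of 64 other WNT pathway genes was examined, from ligand secretion to the nucleus. Of 47 tested, 20 rose (42.6%), 13 fell (27.7%) and 14 were neither, and the median log2 change was 0.10, against 35.3% higher and 35.4% lower among all tested genes. Under total count scaling, 23 rose and 8 fell. WLS, the carrier that brings WNT proteins to the cell surface, rose from 1469, 1234 and 1229 to 1957, 2218 and 1933, a log2 change of 0.64 ± 0.09 (SE, limma, adjusted p = 1.3e-06). PORCN, the enzyme that attaches the lipid to WNT proteins, had a signal of 197, 107 and 167 in the DMSO libraries and 185, 180.2 and 167 in the erlotinib libraries and was neither (log2 fold change 0.22, 95% interval -0.19 to 0.62, limma), and without DMSO2 its log2 fold change was -0.034. The 4 R-spondin genes had no more than 2 reads in any library, so the ligands of LGR4 were at the floor of this measurement.

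At the cell surface, 7 of 14 tested genes rose and 4 fell, in the cytoplasm 10 of 20 rose and 5 fell, and in the nucleus 2 of 11 rose and 4 fell, beside 35.3% higher and 35.4% lower among all tested genes. Of the surface genes that rose, GPC4 reached the limit for testing only through the erlotinib libraries, with 0, 2 and 2 reads in DMSO1 to DMSO3 and 22, 20 and 33 in Erlo4 to Erlo6. ROR1, a receptor of WNT5A, fell from 2023, 2155 and 2118 to 974, 992 and 978, a log2 change of -1.10 ± 0.08 (SE, limma, adjusted p = 4.4e-11). VANGL1, a planar polarity protein, fell from 2686, 2537 and 2678 to 1471, 1594 and 1566 (log2 change -0.77). KREMEN2, which helps DKK1 to clear LRP6, fell from 152, 153 and 132 to 63.7, 75.2 and 72.1 (log2 change -1.04), while its relative KREMEN1 rose by 1.07. CELSR1, CELSR2 and CELSR3, planar polarity cadherins, rose by 0.69, 1.23 and 1.04 on the log2 scale. In the cytoplasm, FRAT1, which binds GSK3 and favours β-catenin, rose from 31.8, 13.00 and 29.97 to 187, 187 and 197, a log2 change of 2.98 ± 0.29 (SE, limma, adjusted p = 1.0e-08). CTNNB1, which encodes β-catenin, fell from 6901, 5648 and 6378 to 4683, 5034 and 4959, a log2 change of -0.36 ± 0.07 (SE, limma, adjusted p = 1.6e-04), and the log2 change was -0.18 under total count scaling. APC, which holds β-catenin for destruction, had a log2 fold change of -0.08 (95% interval -0.26 to 0.10, adjusted p = 0.398, limma) and was at 0.10 with total count scaling. The value of APC was -0.14 without DMSO1 and -0.053 without DMSO2. Of the Dishevelled genes, which relay the signal from Frizzled, DVL1 fell (log2 change -0.52) and DVL2 (0.22) and DVL3 (0.68) rose. In the nucleus, the corepressor TLE2 rose from 27.2, 32.5 and 28.9 to 161, 121 and 114 (log2 change 2.11). Of the genes named here that rose or fell, DVL2 had the largest adjusted p-value (0.0171, limma). KREMEN1 and the CELSR and DVL genes were named after their values were seen.

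**Figure D5:**
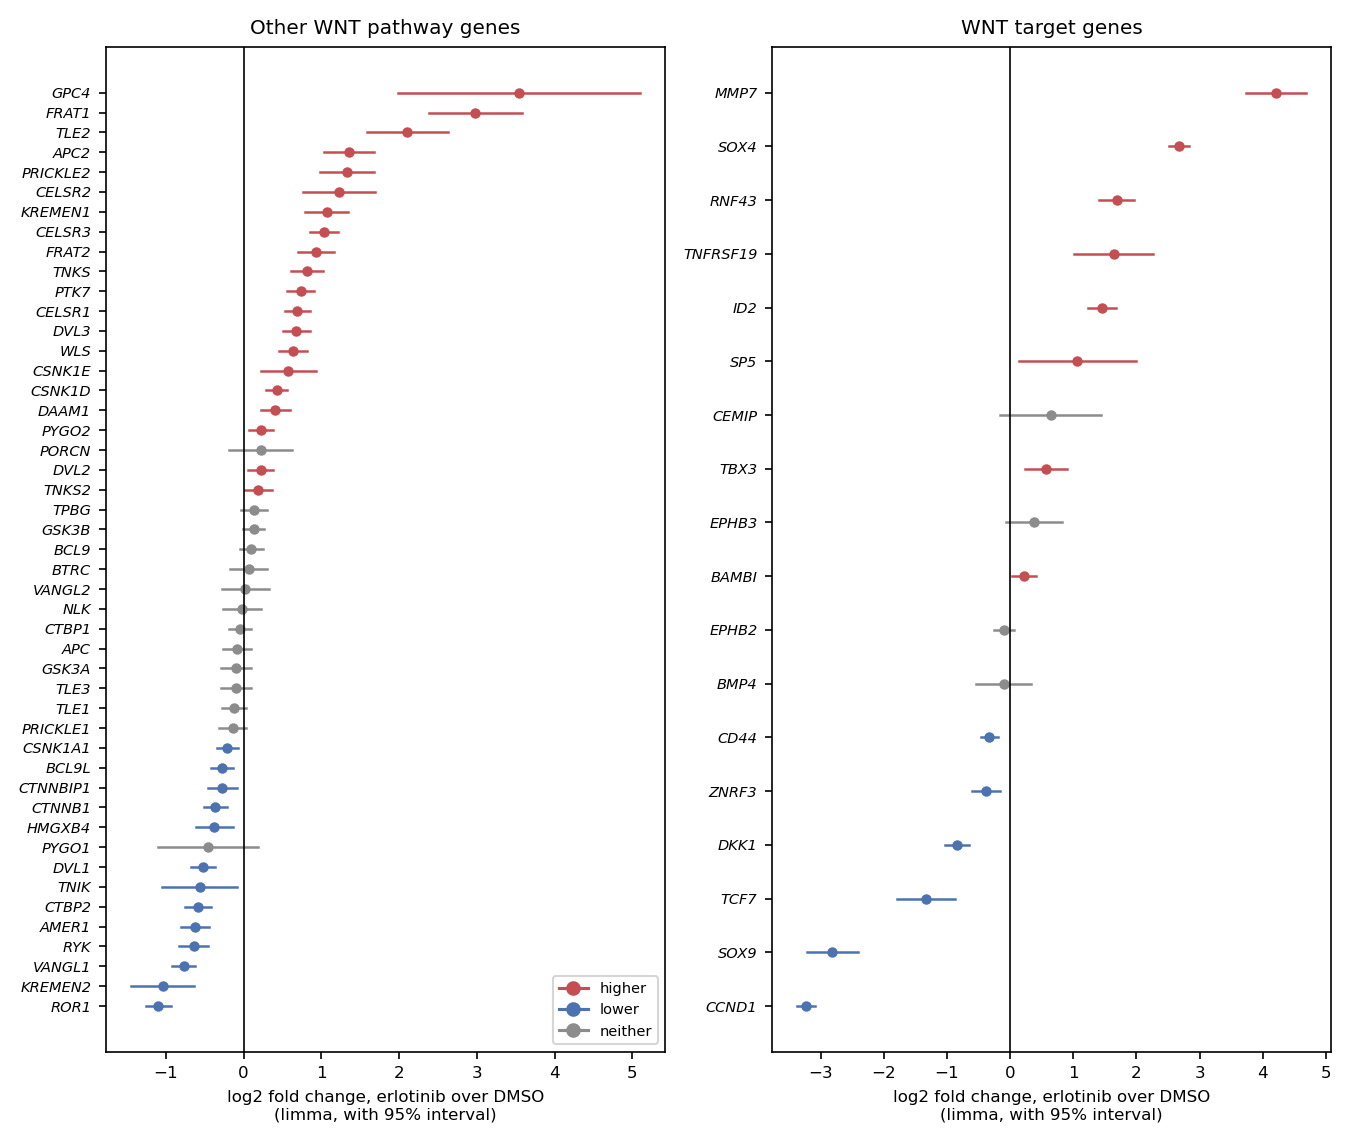
Log2 fold change with erlotinib over DMSO, with its 95% interval (limma on log2(signal + 1)), of the 47 tested other WNT pathway genes (left) and the 18 tested WNT target genes (right), sorted by size. Red marks genes that rose, blue genes that fell and grey those that were neither, and both panels hold all 3 kinds.

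A list of 26 known WNT target genes, 8 of which are among the 52, moved in both directions. Of 18 tested, 8 rose (44.4%, against 35.3% of all tested genes), 6 fell (33.3%, against 35.4%) and 4 were neither, and the median log2 change was 0.30, against 0.02. Without Erlo4, 6 of them rose. The largest fall was that of CCND1, the G1 cyclin D1, from 25308, 23960.0 and 23906 to 2416, 2623 and 2760.5, a log2 change of -3.23 ± 0.07 (SE, limma, adjusted p = 4.6e-19). SOX9, a transcription factor of epithelial progenitors, fell from 395, 294 and 372 to 61.8, 42.6 and 44.9 (log2 change -2.81, limma adjusted p = 4.6e-11). The largest rise was that of MMP7, a secreted matrix protease, from 53.3, 30.6 and 22.5 to 659.8, 647 and 597, a log2 change of 4.21 ± 0.23 (SE, limma, adjusted p = 9.1e-13). SOX4, another transcription factor, rose from 8419.6, 6685 and 7256 to 47028, 48849 and 46143 (log2 change 2.67, limma adjusted p = 4.2e-17), and ID2, an inhibitor of bHLH factors, rose from 464, 549.8 and 391 to 1303, 1280.0 and 1237 (log2 change 1.46, limma adjusted p = 1.6e-10). SP5, a transcription factor induced by β-catenin in many cell types, had a signal of 11.3, 14.9 and 34.2 in the DMSO libraries and 67.4, 31.7 and 27.1 in the erlotinib libraries and rose by 1.06 (limma adjusted p = 0.0384), and was named after its values were seen. Its groups overlapped, with Erlo4 the highest library and DMSO3 above Erlo5 and Erlo6. These genes are also regulated by other pathways, so the list is not specific to WNT signalling. The targets that also belong to the 52 genes moved in both directions too, with RNF43 higher, ZNRF3, DKK1 and TCF7 lower, and AXIN2, NKD1, LGR5 and LEF1 too low to test.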

How the data were processed

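RNA-seq of 3 DMSO and 3 erlotinib libraries of HCC827 cells was analysed. Paired-end reads were mapped by the authors with Bowtie2 2.3.4 against GRCh38, and the uniquely mapped ones were counted per gene with featureCounts 1.6.3. The strand setting is not given in the sources used here. An aligner without spliced alignment can lose reads over junctions. The table deposited by the authors is described as raw counts but holds signal: each value is a whole multiple, within 0.001, of 1 step per library, here taken as a read over a size factor (0.882 to 1.08), and all values came out as whole reads. Read numbers of 2 were more frequent than those of 1 (40.4% and 23.6% of values from 1 to 4), so reads need not be independent molecules, and floors of 3 reads cover counting error only. All 6 columns were used, as were 475 genes without a symbol.

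limma with a trend was fitted to log2(signal + 1) of 14215 genes (mean signal 10 or more), two-sided, with Benjamini-Hochberg adjustment over all of them. A log2 fold change on this scale understates the change of low genes. The genes and lists were chosen with earlier results of these data known. By the naming rule, values in every library are given for genes past the threshold by at least 1 log2 unit, for the most abundant of each role, and for AXIN2, LEF1, TCF7, TCF7L1, TCF7L2, RNF43 and ZNRF3. Of the other lists, 5 genes were named in each direction, by size of change among those past the threshold at a mean signal of 50 or more, and CTNNB1, APC, PORCN and WLS. Exon lengths are unions of GENCODE 44 exons, positions come from RefSeq, and copies on 261 alternate contigs were found with minimap2. The fit was tested on simulated data. Alternatives were TMM factors, total count scaling, edgeR, DESeq2, limma-voom, pseudocounts of 0.1 and 10, other filters, an adjusted p-value under 0.01, and each library left out in turn. Versions were limma 3.58.1, edgeR 4.0.16 and DESeq2 1.42.0 in R 4.3.3, Python 3.11.15, matplotlib 3.10.9 and minimap2 2.31-r1302.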

Additional observations from a re-analysis of the deposited data

How the results depend on the processing

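Over 16 alternatives, 6 to 8 of the WNT genes were lower and 11 to 17 higher, and over those that each left out 1 library, 6 to 8 were lower and 11 to 13 higher. Of the 28 tested genes, 18 kept their direction and their side of the threshold under every alternative that gave a value, and 10 (AXIN1, FZD1, FZD3, FZD6, FZD8, LRP6, TCF7L2, WNT7A, WNT8B and ZNRF3) changed side in at least 1 without a change of direction. The median log2 fold change was 0.43 with total count scaling and 0.50 without the filter, in which 45 genes were tested, and 0.25 to 0.31 when a library was left out. The number of other WNT pathway genes that fell was 8 with total count scaling, in which all genes shift upward, and 11 to 14 when a library was left out. Of the target genes, 6 to 9 rose and 5 to 7 fell over all alternatives. APC (0.10 with total count scaling) and PORCN (-0.034 without DMSO2, and up to 0.41 without DMSO1) changed direction, neither passing the threshold. WNT8B passed it with a pseudocount of 10 and with at least 10 reads in every library, and FZD1 with edgeR (adjusted p = 0.047) and limma-voom (adjusted p = 0.050). No paired analysis was possible because the erlotinib columns are numbered 4 to 6 and cannot be matched to the replicate numbers of the labels. Genes with a mean signal under 10 were tested only without the filter, and fold changes of genes with few reads, such as WNT5A and FZD9, moved with the pseudocount.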
